A study of Mus musculus with 3 samples.

Results

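The E protein genes Tcf3, Tcf4 and Tcf12 and the Id genes Id1, Id2 and Id3 were followed in regulatory T cells labelled as activated (Treg cells are Foxp3-positive CD4 T cells that hold immune responses in check). The 6 genes were chosen by symbol, not by their values, and all 6 were found among 55536 annotated genes. They carried 105 annotated transcripts. The data were 3 libraries of polyadenylated RNA from 1 biosample of 1 male mouse aged 9 weeks, which the labels number as technical replicates 1, 2 and 3. The labels name no genotype, strain or treatment, give neither the means of activation nor that of isolation, and give a single group. There was therefore no contrast between conditions: the comparisons below are between genes and between transcripts within the same libraries. Every SD is over 3 libraries, is technical, and says nothing about variation between mice.

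E proteins are basic helix-loop-helix (bHLH) transcription factors that bind E-box motifs in DNA as dimers with each other or with tissue-restricted bHLH partners. Id proteins keep the helix-loop-helix but lack the basic region, so that an E protein paired with an Id protein cannot bind DNA. In T cells this balance acts at lineage and checkpoint decisions in the thymus and in the behaviour of mature effector, memory and regulatory cells.

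The sequences below are shown because the choice between them sets which bHLH region Tcf3 encodes. Tcf3 (ENSMUSG00000020167.14, mm10 chromosome 10, 80409514 to 80433647, minus strand) encodes the proteins E12 and E47, which differ by a pair of alternative coding exons. The E47 exon lies at chr10:80410398-80410624 with 227 bases and the E12 exon at chr10:80412827-80413062 with 236 bases. The annotation does not name these exons: the names were given from their known order, with the E12 exon first in the direction of transcription, and the shares below rest on that assignment. Of the annotated coding transcripts of Tcf3, 7 carry the E47 exon without the E12 exon and 4 carry the E12 exon without the E47 exon. Both exons are given on the minus strand of GRCm38 (mm10), 5′ to 3′, from the GENCODE M21 transcripts. Capitals mark bases that differ from the other exon or have no partner there in a global alignment.
E47 exon: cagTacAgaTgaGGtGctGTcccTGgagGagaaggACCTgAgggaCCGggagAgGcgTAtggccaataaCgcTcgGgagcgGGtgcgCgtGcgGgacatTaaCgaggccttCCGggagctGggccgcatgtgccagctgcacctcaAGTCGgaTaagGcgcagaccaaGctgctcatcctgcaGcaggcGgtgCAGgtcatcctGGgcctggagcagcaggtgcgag
E12 exon: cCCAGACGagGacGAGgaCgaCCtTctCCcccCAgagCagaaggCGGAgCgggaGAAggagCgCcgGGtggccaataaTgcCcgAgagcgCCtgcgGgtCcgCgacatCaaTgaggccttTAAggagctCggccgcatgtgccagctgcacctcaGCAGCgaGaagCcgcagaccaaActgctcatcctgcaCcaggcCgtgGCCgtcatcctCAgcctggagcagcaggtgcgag
The alignment paired 227 bases, of which 175 (77.1%) were identical. The capitals are densest in the first stretch of each exon and thinner through the rest, where the bHLH region is encoded. Reads were 50 bases long. Of the 276 windows of 50 bases that touch the E47 exon, 22 also occurred in transcripts with the E12 exon, and 22 of the 285 windows that touch the E12 exon occurred in transcripts with the E47 exon. Most reads on either exon can thus be told apart, but such windows make up 9.51% of the windows of Tcf3-209, an E47 transcript, and 10.2% of those of Tcf3-210, an E12 transcript.

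The 3rd sequence is an exon of Tcf12, which encodes the E protein HEB. Tcf12 (ENSMUSG00000032228.16) lies on mm10 chromosome 9, 71842688 to 72111871, minus strand. An exon of 72 bases, chr9:71868999-71869070, is carried by 4 of its coding transcripts and, as a multiple of 3 bases, keeps the reading frame. It is shown because inclusion of this exon separates the coding forms of Tcf12 described below, and its bases are given from the same source on the minus strand of GRCm38 with no base marked.
Tcf12 insert exon: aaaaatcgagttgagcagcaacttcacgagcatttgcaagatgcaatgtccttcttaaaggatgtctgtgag

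The libraries held 31445344, 32612609 and 37259281 expected counts. Expected counts are reads shared out over the genes and transcripts they match, and TPM is the transcript level corrected for transcript length and scaled to a fixed total per library. All 5 Treg markers (Foxp3, Il2ra, Ctla4, Ikzf2 and Tnfrsf18) were detected, where detected means at least 1 TPM in every library, with a summed level of 2082 to 2134 TPM. All 5 T cell markers were detected as well, at 6854 to 6930 TPM in sum. Markers of B cells (5 of 8 detected, 46.2 to 57.8 TPM in sum), myeloid cells (4 of 6, 43.7 to 49.0 TPM) and CD8 T and NK cells (5 of 6, 33.4 to 38.2 TPM) were low. Markers of red cells (4 of 4, 369 to 520 TPM in sum) were mostly the haemoglobin genes Hbb-bs and Hba-a1. In bulk RNA, fewer cells of a type and less RNA per cell cannot be told apart.

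Of the 6 genes, 5 were detected, against 47.3% of the 22028 protein-coding genes. Their median was 69.5 TPM, beside 0.808 TPM over all protein-coding genes and 29.2 TPM over those detected. In TPM, Id2 was the most abundant, followed by Id3, Tcf3, Tcf12, Tcf4 and Id1 in that order. The smaller gene table, another table of whole-number counts per library, was taken here per kilobase, with gene lengths from the larger table that holds TPM. In the smaller gene table Tcf3 came first of the 6, at 4.70% from the top of protein-coding genes, ahead of Id2 at 11.9% and Id3 at 16.1%. In counts scaled to library size (CPM), with no length correction, Tcf3 was at 5.73%, Id2 at 6.09% and Id3 at 10.4%. Id2, Id3 and Tcf3 thus ranked above Tcf12, and Tcf12 above Tcf4 and Id1, in all of these measures, while the order among Id2, Id3 and Tcf3 turned with the measure.

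**Figure D1:**
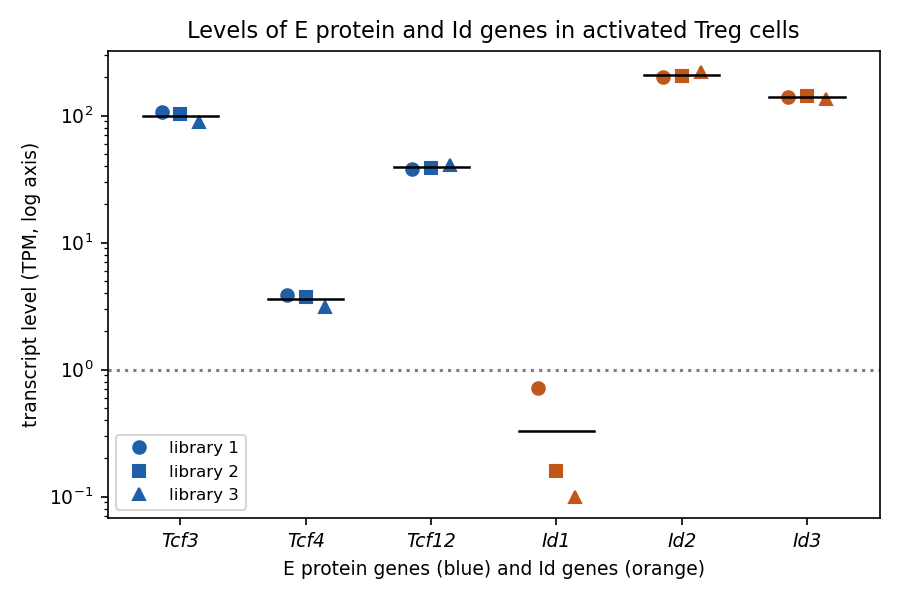
Transcript level (TPM, log axis) of each E protein gene (blue) and Id gene (orange) in libraries 1, 2 and 3 (circle, square, triangle), with a line at the mean and a dotted line at 1 TPM. Id2, Id3 and Tcf3 lie near or above 100 TPM, Tcf12 near 39.1 TPM, Tcf4 near 3.57 TPM, and Id1 below 1 TPM in every library.

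Tcf3 was the leading E protein gene. Its level was 107.23, 103.25 and 89.32 TPM in libraries 1, 2 and 3, with a mean of 99.9 ± 9.40 TPM. Library 3 was the lowest, although all 3 values lay above those of both other E protein genes. Tcf3 ranked 1807th, 8.20% from the top, and drew on 5498, 5632 and 5532 expected counts. No other annotated gene overlaps Tcf3, and the posterior SD of its gene counts in the deposited tables was 0.

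Tcf12, whose product HEB is prominent in developing thymocytes, was the 2nd E protein gene. It stood at 37.80, 38.72 and 40.86 TPM, a mean of 39.1 ± 1.57 TPM, and ranked 4345th, 19.7% from the top. The 3 libraries lay close together and none overlapped the values of Tcf3 or Tcf4. Tcf12 had 2480.81, 2419 and 3190 expected counts. It is overlapped by 11 annotated genes, 4 of them on the other strand, and 9 of the 11 had counts, the highest with a mean of 3.04 TPM. The highest of them, Gm37879, Gm38111, Gm37663 and Gm37137, lie on the same strand as Tcf12, where counting by strand cannot separate reads. No header or label says that counting took strand into account, so reads of genes on the other strand may be mixed in as well.

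Tcf4 (ENSMUSG00000053477.17, mm10 chromosome 18, 69343356 to 69689079, plus strand), which encodes the E protein that specifies plasmacytoid dendritic cells and acts in B cells, was low. It measured 3.89, 3.73 and 3.09 TPM, a mean of 3.57 ± 0.423 TPM, from 106, 127 and 124 expected counts. All 3 libraries were above the detection threshold, and the gene ranked 9541st, 43.3% from the top. Of 9 plasmacytoid dendritic cell markers, 5 were detected, with a summed level of 218 to 242 TPM. Most of that sum was Bst2 (103 ± 4.82 TPM) and Irf8 (56.0 ± 3.09 TPM). The other detected markers were Pacsin1 (31.7 ± 3.26 TPM), Runx2 (22.7 ± 2.03 TPM) and Ccr9 (11.4 ± 1.62 TPM), all above Tcf4. Not detected were Spib (1.16 ± 0.645 TPM), the defining marker Siglech (0.997 ± 0.101 TPM), Cox6a2 (0.120 ± 0.106 TPM) and Klk1, which was at 0. Of the B cell markers, Cd79b was the highest at 29.3 ± 3.95 TPM and Pax5 the lowest at 0.0867 ± 0.0252 TPM. The part of other cells in the Tcf4 level was not tested.

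Id2 (ENSMUSG00000020644.9, mm10 chromosome 12, 25093799 to 25097140, minus strand), the Id gene of effector T cells and innate lymphoid cells, was the highest of the 6 in TPM. Its level was 202.69, 206.13 and 220.54 TPM, a mean of 210 ± 9.47 TPM, and it ranked 749th, 3.40% from the top. Library 3 was the highest here, the reverse of Tcf3. The expected counts of Id2 were 4725, 5120 and 6211.

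Id3 (ENSMUSG00000007872.3, mm10 chromosome 4, 136143497 to 136145755, plus strand), the Id gene of naive and memory-like T cells and a target of T cell receptor signals through Egr factors, followed. It reached 139.22, 143.28 and 135.89 TPM, a mean of 139 ± 3.70 TPM, and ranked 1233rd, 5.60% from the top. In TPM its 3 libraries lay below all 3 of Id2 and above all 3 of Tcf3, an order relative to Tcf3 that turned in the smaller gene table and in CPM. It had 3236, 3567 and 3823 expected counts. Transcripts of both Id2 and Id3 were thus abundant in the same RNA, although bulk libraries do not say whether in the same cells.

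Id1 (ENSMUSG00000042745.9, mm10 chromosome 2, 152736251 to 152737410, plus strand), a target of bone morphogenetic protein signals and the Id gene of many non-lymphoid cells such as endothelium, was not detected. It had 13, 3 and 2 expected counts, or 0.72, 0.16 and 0.10 TPM, where 3 counts would give 0.166, 0.165 and 0.146 TPM. Libraries 2 and 3 were thus at or under that floor, which covers counting error only. Library 1 stood above it. Of 6 markers of stroma and endothelium, Pecam1, which T cells also express, was the 1 detected, at 82.7 ± 2.38 TPM, and the sum of the list was 81.4 to 85.9 TPM. The defining endothelial markers Cdh5 and Kdr had 0.0867 ± 0.0643 and 0.0900 ± 0.0529 TPM.

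**Figure D2:**
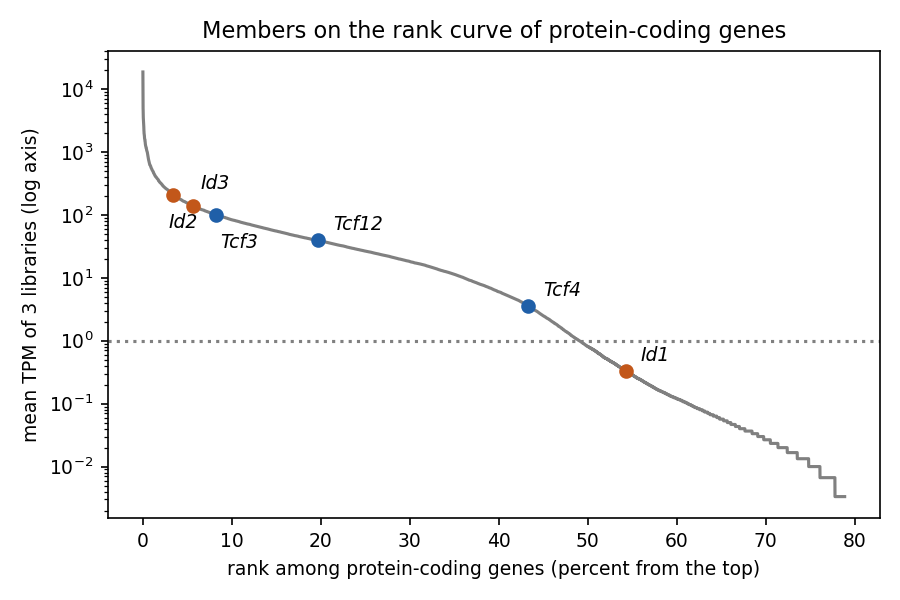
Mean TPM of the 3 libraries (log axis) against rank among protein-coding genes (percent from the top), with E protein genes in blue, Id genes in orange and a dotted line at 1 TPM; genes at 0 are not drawn. Id2, Id3 and Tcf3 sit at 3.40%, 5.60% and 8.20% from the top, Tcf12 at 19.7%, Tcf4 at 43.3% and Id1 at 54.3%.

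In TPM, all 15 pairs of the 6 genes differed by more than the spread between libraries. The rule was that the log2 ratio of TPM has the same sign in all 3 libraries and a mean above 2 SD. Pairs with Id1 rest on its 13, 3 and 2 expected counts, at or under the floor of 3 counts in libraries 2 and 3. The size of their ratios is therefore uncertain. The exact sign-flip permutation test, two-sided, gave p = 0.25 for each pair, the smallest p that 3 libraries allow, and 0.25 after adjustment over the 15 pairs. Among neighbours in the order of levels, Id2 over Id3 was 0.59 ± 0.10 on the log2 scale. Tcf3 over Id3 was -0.48 ± 0.11. Tcf3 over Tcf12 was 1.35 ± 0.20, and Tcf4 over Tcf12 was -3.46 ± 0.23. Tcf4 over Id1 was 3.98 ± 1.35, the 1 ratio that missed the stricter rule of 3 SD. Tcf12 over Id2 had the smallest SD of the 15 in TPM, at -2.42 ± 0.01, but was -0.99 ± 0.08 in CPM and -0.89 ± 0.11 in the smaller table.

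Tcf3 over Id2 was -1.07 ± 0.20 on this scale. Ratios that set Tcf3 against Id2 or Id3 depended on how length and counting were handled. In CPM, with no length correction, Tcf3 over Id2 was 0.06 ± 0.20 and Tcf3 over Id3 was 0.65 ± 0.12, both with the opposite sign. The effective length of Tcf3 was 2635 to 2653 bases, against 1198 to 1206 bases for Id2 and 1194 to 1205 bases for Id3. Levels of genes of such different length are comparable only per length. The smaller gene table, also taken per kilobase, gave 0.76 ± 0.07 for Tcf3 over Id2 and 1.13 ± 0.02 for Tcf3 over Id3, again opposite to TPM and larger than the spread, so that the direction was not settled by length correction.

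The 2 sides of the network were also summed, since E proteins and Id proteins pair with each other. Summed E protein transcripts were 148.92, 145.70 and 133.27 TPM, against 342.63, 349.57 and 356.53 TPM for summed Id transcripts. The Id sum was higher in every library with no overlap, and the log2 ratio of the E protein sum to the Id sum was -1.29 ± 0.11 (-1.20, -1.26 and -1.42; exact sign-flip permutation p = 0.25, the smallest possible). In TPM, Id transcripts thus stood 2.45-fold above E protein transcripts. The difference was not larger than the spread in CPM, and its direction turned in the smaller gene table. These are levels of RNA, and protein was not measured.

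Each side was carried by 2 genes. Tcf3 made up 70.0% ± 2.61 of the E protein sum, Tcf12 27.5% ± 2.77 and Tcf4 2.50% ± 0.157. Id2 made up 60.0% ± 1.62 of the Id sum, Id3 39.9% ± 1.57 and Id1 0.0947% ± 0.1004. The E protein side thus consisted mostly of Tcf3 transcripts, and the Id side of both Id2 and Id3.

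The direction of the summed ratio rested on the larger gene table and on the length correction. With coding transcripts alone, the log2 ratio was -1.55 ± 0.11. In CPM, with no length correction, it was -0.08 ± 0.10, with values from -0.18 to 0.02, which is not larger than the spread. In the smaller gene table, which holds whole-number counts on another annotation, the sums were 3475, 3503 and 3691 counts for the E proteins and 1192, 1247 and 1238 counts for the Id genes. Per kilobase, with gene lengths from the larger table, these counts put the E protein sum above the Id sum, at 0.37 ± 0.02 on the log2 scale.

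The tables differed mostly in the Id genes. Id2 had 7.78 and Id3 6.63 expected counts for each count of the smaller table, against 2.21 for Tcf3, 2.76 for Tcf12 and 1.80 for Tcf4. Over 6163 protein-coding genes with a mean of at least 1000 expected counts, the median was 2.53, with a 5th percentile of 1.36 and a 95th percentile of 21.05. No header or label gives the counting rule of the smaller table, and the cause of the difference was not tested.

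**Figure D3:**
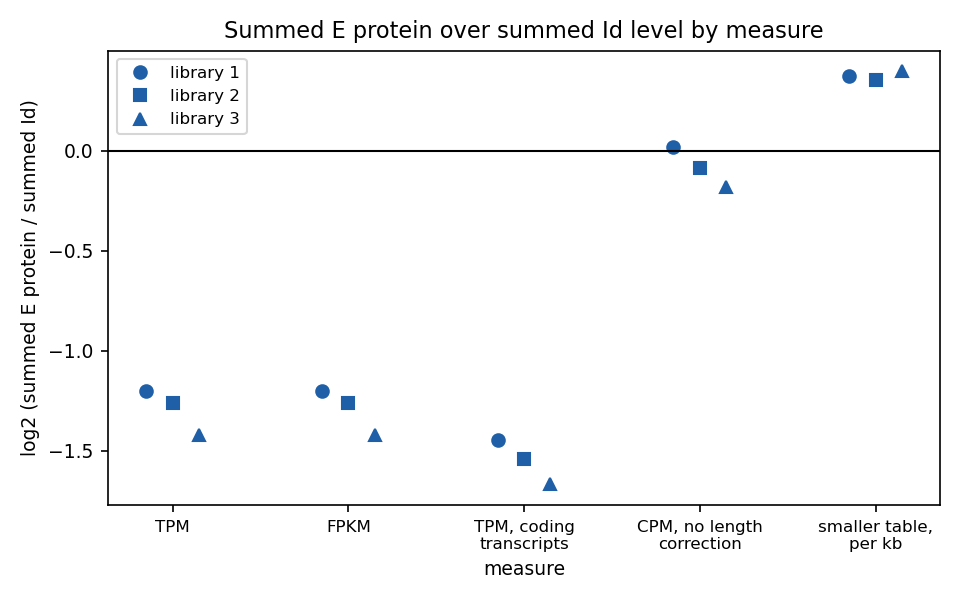
Log2 ratio of the summed E protein level to the summed Id level in libraries 1, 2 and 3 (circle, square, triangle) by measure, with a line at 0. The ratio is about -1.29 in TPM and FPKM, -1.55 for coding transcripts, close to 0 without length correction, and 0.37 in the smaller gene table.

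The summed transcripts with the E47 exon exceeded those with the E12 exon in every library. They had 66.6, 65.0 and 60.0 TPM with the E47 exon, against 29.6, 27.7 and 20.6 TPM with the E12 exon. The means were 63.9 ± 3.44 TPM for the E47 exon and 25.9 ± 4.76 TPM for the E12 exon, with no overlap. The E47 share of the transcripts with either exon was 69.3%, 70.1% and 74.5%, a mean of 71.3% ± 2.81. By expected counts the share was 71.5% ± 2.63, from 3733, 3839 and 4015 counts with the E47 exon and 1608, 1641 and 1372 with the E12 exon.

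Single Tcf3 transcripts, in contrast, were not resolved. Tcf3-208, an E47 transcript, had 1681, 0.69 and 613 expected counts in libraries 1, 2 and 3. Tcf3-210, an E12 transcript, had 1548, 344 and 54.2, while Tcf3-206, also an E12 transcript, had 60.2, 1297 and 1298. Where Tcf3-210 was high, Tcf3-206 was low, and their sum moved far less than either. The posterior SD of these counts, which the authors' tables give per transcript, ran from 258 to 452. Of the other E47 transcripts, Tcf3-209 had 1475, 2157 and 2283 counts and Tcf3-202 had 390, 1349 and 992.

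**Figure D4:**
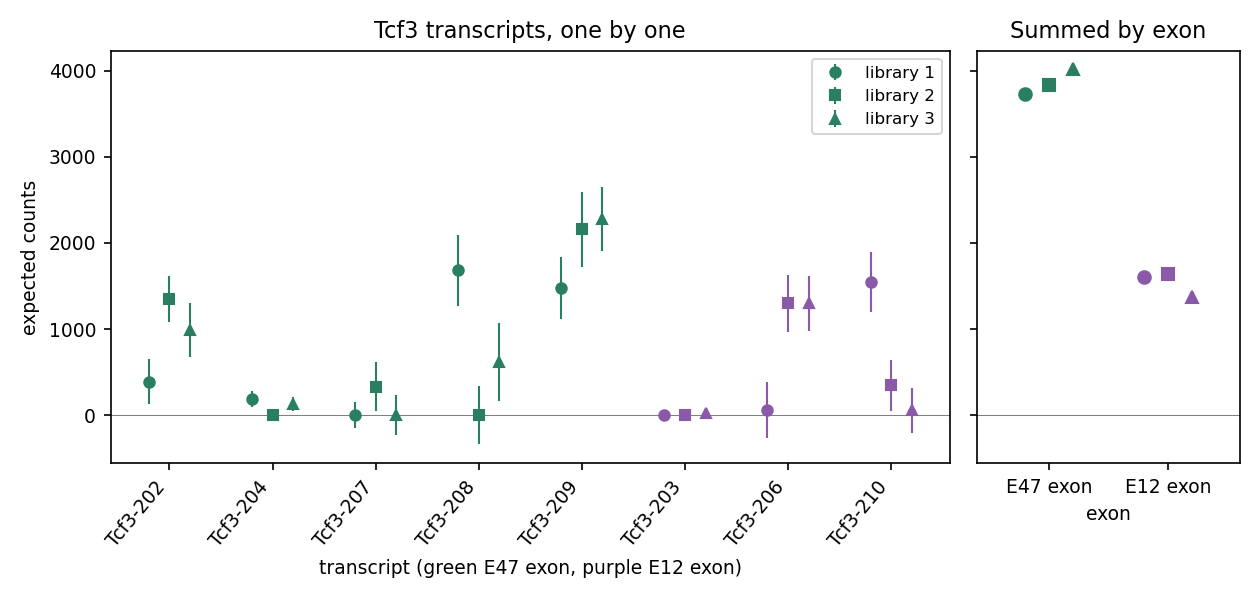
Left, expected counts of each coding Tcf3 transcript that had counts and carries 1 of the exons, in libraries 1, 2 and 3 (circle, square, triangle), with bars for the posterior SD in the deposited tables; right, the same counts summed by exon. Single transcripts such as Tcf3-208 vary from 0.69 to 1681 counts, while the sums lie between 3733 and 4015 for the E47 exon (green) and between 1372 and 1641 for the E12 exon (purple).

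Coding transcripts held 89.9% ± 0.264 of the Tcf3 TPM. Of the 14 annotated transcripts, 10 had counts in some library, 8 in every library, and 6 held at least 5% of the gene's TPM. Beside the 5 coding transcripts above, the 6th was Tcf3-212, an annotated processed transcript with no reading frame, at 6.85% ± 1.11.

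Tcf12 transcripts came mostly from the upstream start of the gene. Transcripts that begin within 5000 bases of the upstream end held 84.0%, 81.2% and 87.4% of the Tcf12 TPM, a mean of 84.2% ± 3.08. Those that begin within 500 bases of an internal start at position 71896096 of chromosome 9 held 10.3%, 9.66% and 6.80%, a mean of 8.94% ± 1.88. The internal start, taken from the RefSeq table, is of the kind that in mouse thymocytes gives the shorter HEBAlt protein. By expected counts the internal share was 12.6% ± 2.77, from 345, 350 and 300 counts. Its largest transcript, Tcf12-207, has a reading frame of 1608 bases and held 6.08% ± 2.00, against 39.2% ± 5.87 for Tcf12-201, whose reading frame is 2046 bases. The posterior SD of the Tcf12-201 counts was 117, 118 and 171. Tcf12-220, annotated as a target of nonsense-mediated decay, had 26.9, 0 and 0.99 counts with a posterior SD of 94.3, 81.8 and 145. Shares of single Tcf12 transcripts, and of coding transcripts, carry this uncertainty.

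The insert exon of 72 bases printed above was in the minority. Among coding transcripts that span it, those with the exon (Tcf12-202, Tcf12-207 and Tcf12-216) held 25.6%, 23.5% and 13.8% of the TPM, a mean of 20.96% ± 6.32. Library 3 had the lowest share and the most counts of Tcf12-201. Tcf12-207 had 263, 165 and 204 expected counts in libraries 1, 2 and 3, and Tcf12-202 had 253, 134 and 148. Tcf12-216 had counts in library 2 alone, at 63.3. Whether inclusion of the exon differed between libraries was not tested. Tcf12-201, which lacks the exon, alone had 1278, 1244 and 1986 expected counts.

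In TPM, a sizeable part of the Tcf12 RNA was in annotated transcripts with no full reading frame. Coding transcripts held 62.6% ± 4.11 of the Tcf12 TPM, less than for Tcf3 in every library. By expected counts, which are not corrected for length, the coding share of Tcf12 was 74.0% ± 3.26, against 97.3% ± 0.115 for Tcf3. The retained-intron transcripts Tcf12-212 and Tcf12-219 held 11.6% ± 0.315 and 7.16% ± 1.00. Tcf12-211, annotated as a target of nonsense-mediated decay, held 11.2% ± 1.196, and the short coding transcript Tcf12-203 held 5.85% ± 1.51. The mean shares by expected counts were 7.71% for Tcf12-212, 9.45% for Tcf12-219, 2.66% for Tcf12-211 and 0.987% for Tcf12-203. The part of the overlapping genes in the retained-intron values was not tested.

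**Figure D5:**
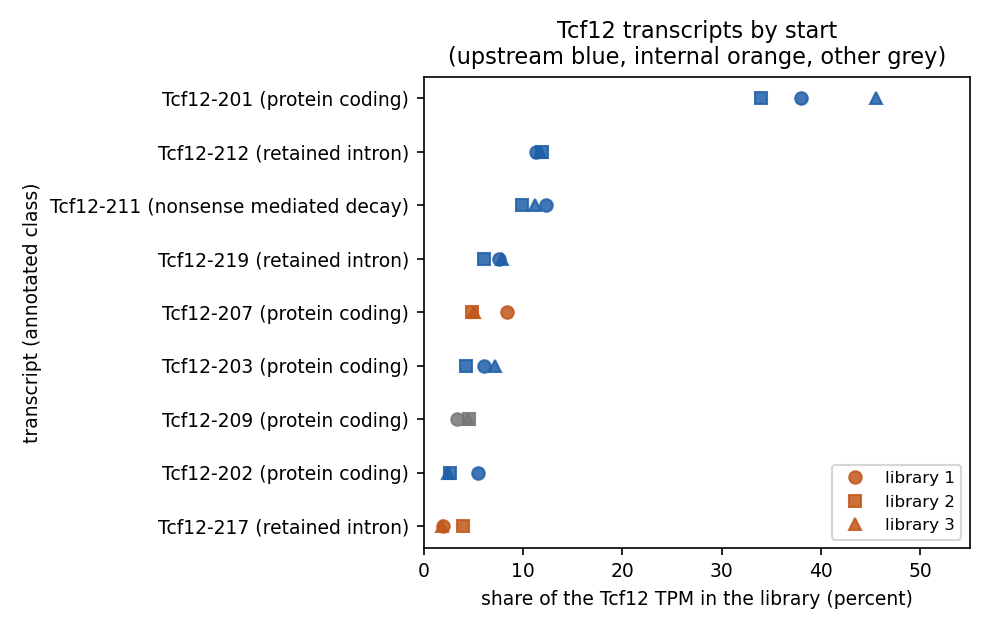
Share of the Tcf12 TPM (percent) held by each transcript with a mean of at least 2%, in libraries 1, 2 and 3 (circle, square, triangle), coloured by where the transcript starts. Tcf12-201 leads at 34.0% to 45.5%, and the internal-start transcript Tcf12-207 lies at 4.83% to 8.39%.

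For Tcf4 the depth did not resolve transcripts. Of 62 annotated transcripts, 27 had counts in some library but 2 in every library, and 9 held at least 5% of the TPM on average. The leading one, Tcf4-259, is a short transcript with 6.86, 8.10 and 3.22 expected counts and a share of 18.5% ± 7.18. Tcf4-210 came next at 11.1% ± 6.87, with 8.57, 13.93 and 27.41 counts, and the other 7 each lacked counts in at least 1 library. Coding transcripts held 77.2% ± 18.6 of the Tcf4 TPM.

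The Id genes had 1 dominant transcript each. Id2-201 held 93.5% ± 1.43 of the Id2 TPM and Id2-203, which starts close by, 6.41% ± 1.42. Id3-201 held 95.0% ± 1.14 of the Id3 TPM, and the retained-intron transcript Id3-203 was at 8.26, 7.03 and 4.46 TPM. Both minor transcripts were lowest in library 3. Of the few Id1 reads, Id1-201 held 93.0% ± 12.2 and Id1-202 7.04% ± 12.2, from 3.33 counts in library 1 alone.

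The libraries differed by more than counting noise in most of these genes. A chi-square test of equal shares of expected counts over the 3 libraries, adjusted by Benjamini-Hochberg over all 15945 genes with a summed count of at least 30, called 65.8% of genes at 0.05. It called 4 of the 5 members tested, which is to be read beside that background. Id1, with 18 counts in sum, was not tested.

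Among the called genes, Tcf3 had 175, 173 and 149 CPM in libraries 1, 2 and 3 (adjusted p = 3.49e-19 over all genes), so that library 3 was low. Id2 had 150, 157 and 167 CPM (adjusted p = 1.45e-06) and was highest in library 3. Tcf12 had 79.0, 74.3 and 85.7 CPM (adjusted p = 2.21e-06), also highest in library 3, and Id3 had 103, 110 and 103 CPM (adjusted p = 0.0159). Tcf4, with 3.38, 3.90 and 3.33 CPM, was not called (adjusted p = 0.440). With the chi-square scaled down by the median overdispersion, 1.85% of genes and none of the 5 members were called, with an adjusted p of 0.153 for Tcf3. Library sizes by edgeR TMM or DESeq2 size factors called 65.6% or 65.7% of genes and 4 members each. Without the count filter 41.7% of genes and 5 of 6 members were called. The test on counts of the smaller table called 33.5% of genes and 2 members, Tcf3 and Tcf12. Without library 1, 2 or 3, in that order, 48.6%, 41.1% and 45.0% of genes were called, with 4, 3 and 1 members, and the 1 called without library 3 was Id3. The biological coefficient of variation that edgeR gives, here a technical one, was 5.72% to 7.03% for Id3, Id2, Tcf3 and Tcf12 and 25.5% for Tcf4, beside a common value of 19.8%.

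For each member, the protein-coding gene with the nearest 3 values of log2(TPM + 1) was named, as a description over 3 libraries. Tcf3 lay nearest to Nubp2 (98.4 ± 5.46 TPM, Euclidean distance 0.0888), an iron-sulfur cluster assembly gene. Tcf12 lay nearest to the replication-associated gene Pclaf (39.2 ± 1.23 TPM, distance 0.0241) and Tcf4 to the zinc finger gene Zfp605 (3.65 ± 0.423 TPM, distance 0.0587). Id2 was matched by Matr3, which encodes a nuclear matrix protein (210 ± 13.1 TPM, distance 0.0379). Id3 was matched by the respiratory complex I gene Ndufa9 (139 ± 4.58 TPM, distance 0.0219) and Id1 by Gm49673 (0.373 ± 0.363 TPM, distance 0.0849).

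Other genes of the network were read from 7 lists with 91 genes in all, of which 46 were detected, beside 47.3% of the 22028 protein-coding genes. The counts and medians of each list are to be read beside that share. The median was 0.808 TPM over all protein-coding genes and 29.2 TPM over those detected. The fourth Id gene, Id4, was not detected (0.0967 ± 0.0850 TPM, from 1, 14 and 9 counts). None of 23 tissue-restricted bHLH partners of E proteins was detected: 16 were at 0 in every library, and the highest was Tal1, a partner in blood stem and red cells, at 0.337 ± 0.227 TPM. The genes at 0 included Tal2, Twist1, Ptf1a, Myod1, Myf5, Myf6, Myog, Neurod1, Neurog1, Hand1, Hand2, Mesp1, Tcf15, Tcf21 and Tcf23. Of 6 other bHLH repressors 1 was detected, Bhlhe40, at 25.4 ± 2.04 TPM. Heyl was the lowest of those 6, at 0.00333 ± 0.00577 TPM.

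Of 11 genes for cofactors that join E protein complexes, 7 were detected, with a median of 5.28 TPM. The LIM-domain-binding gene Ldb1, whose product bridges bHLH complexes, led at 167 ± 2.58 TPM, above Tcf3. The acetyltransferase genes Ep300 and Kat2b, whose products act as coactivators, followed at 36.3 ± 2.85 and 28.8 ± 1.81 TPM. Lmo2, an adaptor of these complexes in blood stem cells, was the lowest detected at 2.07 ± 0.153 TPM, and Ldb2 was at 0.

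Of 21 genes reported as E protein targets in mouse lymphocytes, 14 were detected, with a median of 19.6 TPM. The T cell genes Cd3e, Cd4 and Ccr7 were the highest, at 1274 ± 39.0, 394 ± 15.9 and 244 ± 18.0 TPM. The recombinase genes Rag1 and Rag2, which E proteins drive in immature lymphocytes, were at 0 in every library. These are levels in 1 group, and no effect of E proteins on them was measured.

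Of 18 regulators of Id transcription, 13 were detected, with a median of 22.1 TPM. The ligand gene Tgfb1 led at 131 ± 0.260 TPM, followed by the receptor gene Tgfbr2 at 97.0 ± 4.997 TPM and the immediate-early gene Egr1, which acts on Id3 downstream of the T cell receptor, at 72.7 ± 3.68 TPM. Bmpr1a, a receptor for bone morphogenetic proteins, was the lowest detected at 1.38 ± 0.103 TPM, and Smad9, a transducer of the same ligands, was at 0. All 11 genes for turnover of Id and E proteins were detected, with a median of 58.4 TPM. The ubiquitin ligase genes Skp1a, Stub1 and Cul1 led at 218 ± 10.1, 120 ± 9.04 and 91.4 ± 2.60 TPM, and Skp2 was the lowest at 4.16 ± 0.901 TPM. Usp1, whose product stabilises Id proteins, had 58.4 ± 6.81 TPM.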

How the data were processed

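PolyA RNA was measured in 3 technical libraries of 1 biosample. Per the file headers and the labels, the authors made a larger gene table and a transcript table on mm10 with GENCODE M21, with expected counts, TPM and FPKM deposited for each feature, and a smaller gene table of whole-number counts with GENCODE M4. No source used here gives the aligner, the quantification program or strand use. The percent of its gene that each transcript holds was deposited by the authors too, but shares were recomputed from TPM. Genes were matched by identifier (55536 of 81881 rows; the unmatched rows held 0.125% to 0.182% of counts and were left out). The smaller table had 22457 genes, of which 22195 matched. Expected counts were rounded for the chi-square test. It was tried on simulated counts that held counting noise but not the overdispersion of these libraries, so its error rate on the real counts was not tested. Reads carry no molecular identifiers, so floors (3 counts) cover counting error only. The members, gene lists, tests and rule for named genes (members, transcripts from 5% of a gene, the nearest gene, and the highest 3 and lowest 1 detected and the zero genes of each list; Usp1 was added after its value was seen) were chosen with earlier results of these data known. Some genes that this rule names are not reported here. The sign-flip p-values ask only whether a ratio is centred on no difference over the technical libraries. The chi-square p-values ask whether the libraries differ by more than counting noise. Neither covers variation between mice. Alternatives were FPKM, no length correction, the smaller table, other scaling, pseudocounts (0.1 and 1 TPM), filters, coding transcripts and leaving out each library. R 4.3.3, edgeR 4.0.16, DESeq2 1.42.0, Python 3.11.15, pandas 2.3.3 and scipy 1.17.1 were used.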

Additional observations from a re-analysis of the deposited data

How the results depend on the processing

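No paired analysis was possible because the series has 1 group. Without length correction, Tcf3 over Id2 turned to 0.0630 and Tcf3 over Id3 to 0.65 on the log2 scale, and the summed E protein over Id ratio shrank to -0.0833. In the smaller gene table these 3 values turned to 0.76, 1.13 and 0.37. There Id1, at 0 counts in library 3, gave no ratios, and the other 8 of 10 pairs kept direction and call. FPKM and both pseudocounts kept all 15 pairs. The rule of 3 SD lost Tcf4 over Id1 (3.98). The internal-start share of Tcf12 was 12.6% by expected counts. The chi-square test called 295 genes after division by the shared overdispersion and 3839 in the smaller table, against 10487, with 0 and 2 members, against 4. Leaving out 1 library gave 6069 to 7265 genes and 1 to 4 members: without library 3 only Id3 was called and Tcf3 had an adjusted p of 0.639. Without the count filter Id1 was called too (adjusted p = 0.00287). The causes were not tested. Depth limits Tcf4 transcripts and Id1.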
